A study of Mus musculus with 28 samples.

Results

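Myelin is made by oligodendrocytes, and the 9 genes described here, Mbp, Mog, Mag, Mobp, Cnp, Mal, Cldn11, Ugt8a and Opalin, encode proteins of the myelin sheath or of the cell that lays it down. They were chosen by symbol, and each was measured with 1 probe or more of a microarray that held probes for 20660 named mouse genes. All 9 were found, with 13 probes among the 55681 of the array. For a gene with several probes, the probe with the highest mean level was used. Levels were read in slices of whole brains of 3-week male C57BL/6J mice by Transcriptome Tomography: a frozen brain is cut into serial sections along a body axis, and runs of neighbouring sections are combined into fractions. The first mouse gave 12 coronal fractions, another 6 horizontal fractions and the last 10 sagittal fractions, and the mice shared strain, sex and age, with no treatment or allele named in the labels. Each fraction was hybridised to 1 array, so no position has a replicate, and mouse and plane cannot be told apart. The last coronal fraction is labelled as pooled with a following one.

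A level is the log2 processed signal of a probe minus the 75th percentile of its array, and levels are compared only within a probe. The labels do not name the ends of the axes, so these were read from regional genes. Hox genes of the hindbrain summed highest in coronal fraction 1, cerebellar genes in fraction 2 and olfactory bulb genes in fraction 11, so coronal numbers run from caudal to rostral. In the horizontal series the cortical genes summed highest in fraction 1 and the hypothalamic genes in fraction 6, so numbers run from dorsal to ventral. The sagittal midline was placed between fractions 5 and 6, and distance from it was counted in fractions. All 13 probes were well above background on all 28 arrays, and no spot of any array was saturated. The 75th percentile of the signal ranged from 135 in sagittal fraction 1 to 574, with 176 in sagittal fraction 9 and 205 in sagittal fraction 10. Coronal fractions 1 and 2 lay on slide 1, 3 to 10 on slide 2, and 11 and 12 on slide 3, so slide and position are partly tied.

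Oligodendrocytes arise from dividing precursors, pass through a short premyelinating stage, and then wrap axons with membrane that they fill with a small set of very abundant proteins and with galactolipids. In rodents this happens mostly in the first weeks after birth and starts in the hindbrain and spinal cord before the forebrain. The members fall into groups by when they appear in this sequence. Cnp, a cyclic nucleotide phosphodiesterase that keeps channels of cytoplasm open in the sheath, Ugt8a, the enzyme of galactosylceramide synthesis, Mbp, which zips the cytoplasmic faces of the membrane together, and Mag, an adhesion protein facing the axon, are taken here as early. Mog, a protein of the outermost lamella, Mal, a proteolipid that sorts myelin cargo, and Opalin, a membrane glycoprotein of mature oligodendrocytes, are taken as late. Mobp, a small basic protein of compact myelin, and Cldn11, the claudin of the tight junctions between lamellae, stand in neither group. The grouping rests on textbook order, and nothing in these arrays dates a gene.

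The stretches just upstream of the members' start sites are shown for 4 genes because their levels moved together along every axis, and because these windows hold the short motifs looked for. RefSeq promoter windows (GRCm38.p6) matched 8 of the 9 members. The first 250 bases of each, ending at the base before the start site, were searched on both strands for CTGGCAC and CTGGTAC, the core bound by the myelin regulator MYRF, and for ACAAAG, a core bound by SOX factors. The 2 kinds of motif share no bases in the windows below. Each sequence runs 5' to 3' on the gene's strand, and capitals mark the matches on either strand.
Mobp (chr9:120149492-120149741, plus strand): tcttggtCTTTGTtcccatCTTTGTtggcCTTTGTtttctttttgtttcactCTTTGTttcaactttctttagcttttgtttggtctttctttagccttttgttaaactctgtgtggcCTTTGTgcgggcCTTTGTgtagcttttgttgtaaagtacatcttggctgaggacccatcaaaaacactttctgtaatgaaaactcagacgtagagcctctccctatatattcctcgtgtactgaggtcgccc
Mag (chr7:30914923-30915172, minus strand): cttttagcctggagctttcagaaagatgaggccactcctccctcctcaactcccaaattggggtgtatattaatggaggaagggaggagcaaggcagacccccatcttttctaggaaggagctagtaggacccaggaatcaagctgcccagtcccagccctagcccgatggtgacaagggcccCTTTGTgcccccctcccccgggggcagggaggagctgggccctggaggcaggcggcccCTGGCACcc
Mog (chr17:37023399-37023648, minus strand): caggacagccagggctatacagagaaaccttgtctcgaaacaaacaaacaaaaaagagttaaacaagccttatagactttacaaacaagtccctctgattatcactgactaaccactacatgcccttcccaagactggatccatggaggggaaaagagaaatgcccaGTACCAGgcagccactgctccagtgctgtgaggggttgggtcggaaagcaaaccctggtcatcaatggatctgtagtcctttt
Opalin (chr19:41077114-41077363, minus strand): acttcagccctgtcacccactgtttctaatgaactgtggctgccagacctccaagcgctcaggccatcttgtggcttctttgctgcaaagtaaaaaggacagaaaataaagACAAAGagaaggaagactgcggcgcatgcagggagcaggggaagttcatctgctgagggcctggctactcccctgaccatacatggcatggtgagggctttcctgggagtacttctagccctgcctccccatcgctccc
A MYRF core was present in 3 of the 8 members (Mag, Cnp and Mog), against 6.79% of 27025 genes with at least 1 such window, a gene with several windows being counted once. By window it was 4 of the members' 10, against 5.93% of 32851. An ACAAAG core was present in 4 of the 8 (Mobp, Mag, Cnp and Opalin), against 18.6% of the genes, and in 5 of the 10 windows, against 16.5% of all windows. The Mobp window holds 6 copies of it, and 1 of the 32851 windows, the one of Mobp itself, held that many. Neither core was found in the windows of Mal, Cldn11 and Ugt8a, and of the 3 annotated starts of Mag, the window shown, which lies outside all of its transcripts, and 1 other hold both cores, while the last holds neither. These matches are strings of letters, and no binding was measured.

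Along the coronal axis the question was how steeply myelin genes fall from caudal to rostral, and whether early and late genes differ in it. All 9 members fell. A straight line through the 12 fractions had a slope of -0.27 log2 per fraction for Ugt8a at the steep end and -0.18 for Mobp at the shallow end, with a median of -0.21 over the 9, while the median slope of all 32364 tested probes was 0.0023. All 9 passed an adjusted p of 0.05 (limma, Benjamini-Hochberg over all tested probes), against 6.73% of all tested probes that fell and 5.83% that rose. The labels and the study's methods differ on the width of a fraction, so slopes are given per fraction and not per distance. The error of a slope is the scatter around its line, since no position was measured more than once. As in any bulk sample, fewer oligodendrocytes in a slice and less RNA in each of them cannot be told apart.

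Among the early genes, Cnp had a lowest level of 4.60, a median of 6.66 and a highest level of 7.23. It stayed between 6.64 and 7.23 in the caudal fractions 1 to 7 and was lowest at the rostral end, in fraction 12. Its slope was -0.19 (SE 0.031, adjusted p = 0.0024, limma). Ugt8a ran from 0.17 in fraction 12 through a median of 2.98 to 3.30 in fraction 4, an 8.74-fold range. Its level was flat within 0.34 log2 over fractions 1 to 7 and then dropped through every further fraction. Its slope was -0.27 (SE 0.043, adjusted p = 0.00196, limma). Mag ran from 4.50 in fraction 12 through a median of 6.70 to 7.03 in fraction 1, with a slope of -0.20 (SE 0.037, adjusted p = 0.0047, limma). Like Cnp, it rose a little from fraction 10 (4.97) to fraction 11 (5.49) before its lowest value.

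Mbp, read by its brightest probe, had another shape. It was highest at the caudal end (7.63 in fraction 1), already down to 5.73 in fraction 6, and lowest in fraction 12 (3.25), with a median of 5.87. The 20.9-fold span between its ends was the widest of the 9, and its slope was -0.27 (SE 0.042, adjusted p = 0.00185, limma). Over fractions 1 to 7 it moved by 1.90 log2, while the other 8 members moved by 0.29 (Mal) to 0.76 (Mog). It also climbed from fraction 8 (5.09) to fraction 11 (5.61), while each of the other 8 members was lower in fractions 10 and 11 than in fraction 8.

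The late genes covered the same ground. Mog ran from 0.95 in fraction 12 through a median of 3.54 to 4.25 in fraction 1, a 9.87-fold range, and its slope of -0.24 (SE 0.031) had the smallest adjusted p of the 9 (0.000574, limma). It lay between 3.49 and 4.25 in fractions 1 to 7, with 3.65 in fraction 7, and dropped to 2.86 in fraction 8. Mal lay between 7.43 and 7.72 in fractions 1 to 7, the flattest stretch among the members, and fell to 5.20 in fraction 12. Its median was 7.46 and its slope -0.22 (SE 0.039, adjusted p = 0.0033, limma). Opalin had its highest level, 2.23, in fraction 7 and its lowest, -1.06, in fraction 12, with a median of 1.61. Its slope was -0.21 (SE 0.048, adjusted p = 0.0134, limma), the least certain of the 9.

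Of the remaining pair, Mobp ran from 4.97 in fraction 12 through a median of 7.27 to 7.67 in fraction 1, with a slope of -0.18 (SE 0.039, adjusted p = 0.0104, limma). Cldn11 ran from 4.16 in fraction 12 through a median of 6.35 to 6.57 in fraction 6, with a slope of -0.19 (SE 0.039, adjusted p = 0.0067, limma). Both held a plateau in fractions 1 to 7 and lost 2.58 and 2.38 log2 between fractions 7 and 12.

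**Figure D1:**
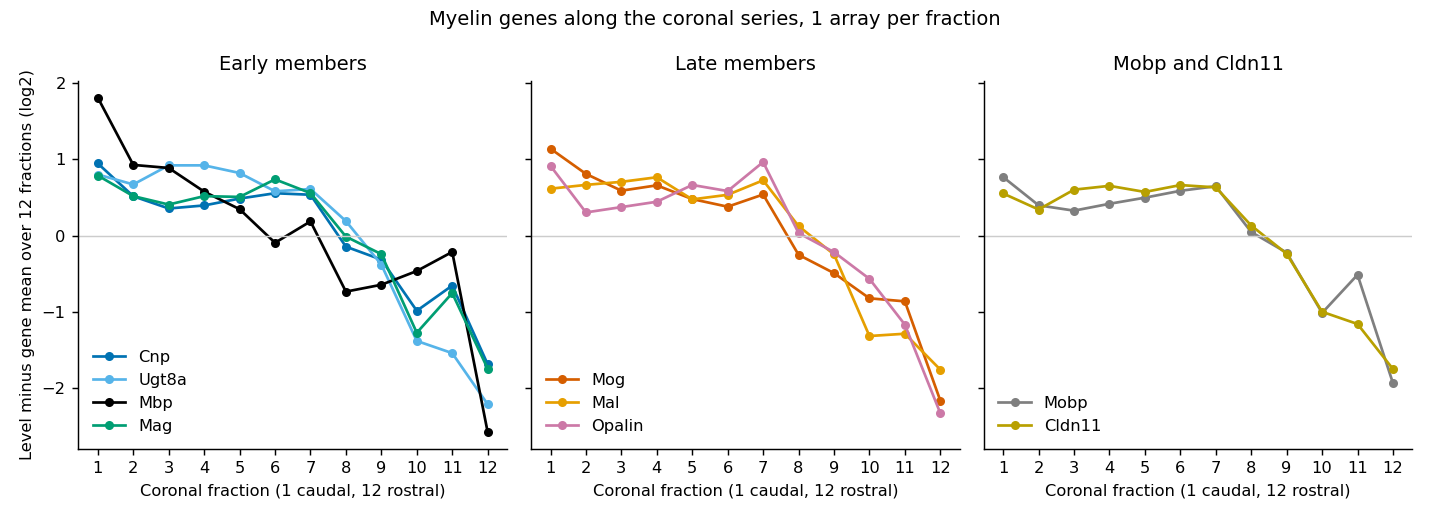
Levels of the 9 myelin genes in the 12 coronal fractions, each minus its own mean over the series (log2), with 1 array per point. All 9 genes are lower in each of fractions 8 to 12 than in any of fractions 1 to 7, a split chosen after the profiles were seen. Mbp moves more within fractions 1 to 7 than the other 8.

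In every one of the 9 members the highest level among fractions 8 to 12 was below the lowest level among fractions 1 to 7. The position of this split was chosen after the profiles were seen. The share of all tested probes with such a split was not counted, so it is a description of the members only. The mean of fractions 1 to 7 exceeded the mean of fractions 8 to 12 by 1.25 log2 (Mobp) to 1.82 log2 (Ugt8a). A curve with 3 degrees of freedom, which allows for a plateau, passed the threshold for all 9 (F-test, limma), against 33.7% of all tested probes. Its adjusted p ran from 7.37e-05 for Ugt8a to 0.00555 for Mbp. The residual SD around the curve was 0.18 for Ugt8a, down from 0.55 around the line, and 0.56 for Mbp, against 0.54 around the line.

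The early and the late genes did not separate along this axis. The median slope was -0.23 over the 4 early genes and -0.22 over the 3 late ones, a difference of 0.011 log2 per fraction. Of the 12 pairs of a late and an early gene, the late gene fell less steeply in 6 and more steeply in 6. The pairs reuse the same genes and are not independent. Every late gene fell less steeply than Ugt8a and Mbp and more steeply than Cnp and Mag, so the split follows the early genes. It also depends on the Mbp probe: with its probes averaged, Mbp had a slope of -0.066, shallower than that of each late gene. The 95% interval of the pair's slope difference, from a line through the 12 differences, included 0 in 10 of the 12 pairs. The other pairs pointed in opposite directions. Mog fell more steeply than Cnp by 0.051 per fraction (SE 0.013, interval of the late minus early slope -0.080 to -0.022), and Mal fell less steeply than Ugt8a, with a difference of 0.048 (SE 0.012, interval 0.022 to 0.074). Over all 12 pairs the intervals spanned -0.091 to 0.18, which is the size of difference these data leave undecided. Neighbouring fractions are not independent, which makes these intervals too narrow.

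In 7 of the members the level crossed the midpoint of its highest and lowest level only once. A member's half-fall position is the fraction number, interpolated between neighbours, of that crossing. It was 9.08 for Cnp, 9.23 for Mag and 9.26 for Ugt8a among the early genes. Among the late genes it was 9.06 for Mog, 9.23 for Mal and 10.2 for Opalin. It was 9.40 for Cldn11. Mbp and Mobp crossed their midpoints 3 times, since both were below the midpoint in fraction 10 and above it again in fraction 11. The first crossing of Mbp, at 7.62, was the most caudal of the 9, that of Mobp was at 9.45, and the last crossing of both was at 11.1. Within single fractions, the late median minus the early median, each gene first set to its own series mean, ranged from -0.47 in fraction 11 to 0.31 in fraction 10. It was 0.04 and 0.07 in the most caudal fractions 1 and 2, and -0.19 in fraction 12.

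Slide and brightness moved with position. With slide as an added term 4 of the 9 slopes passed (Cldn11, Mal, Mog and Ugt8a), against 5.83% of all tested probes in either direction. The slopes of the other 5 were close to those without the term for Cnp (-0.19 in both fits), Mobp (-0.18 in both), Mag (-0.22, from -0.20) and Mbp (-0.25, from -0.27), and -0.15, from -0.21, for Opalin. Their standard errors were larger, 0.055 for Cnp and 0.083 for Mbp. Within slide 2 alone, fractions 3 to 10, 5 passed (Cldn11, Mal, Mog, Ugt8a and Mbp), against 9.19% of all tested probes. The within-slide slopes of the 9 ranged from -0.29 for Ugt8a to -0.14 for Opalin, all still negative. Without fraction 12 all 9 passed, with slopes from -0.23 to -0.13, against 17.4% of all tested probes in either direction. The 75th percentile of the array signal also tracked the members, with r = 0.56 between its log2 and the median profile of the 9 over the 12 coronal arrays, given as a description. The part of brightness in the result was not tested.

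**Figure D2:**
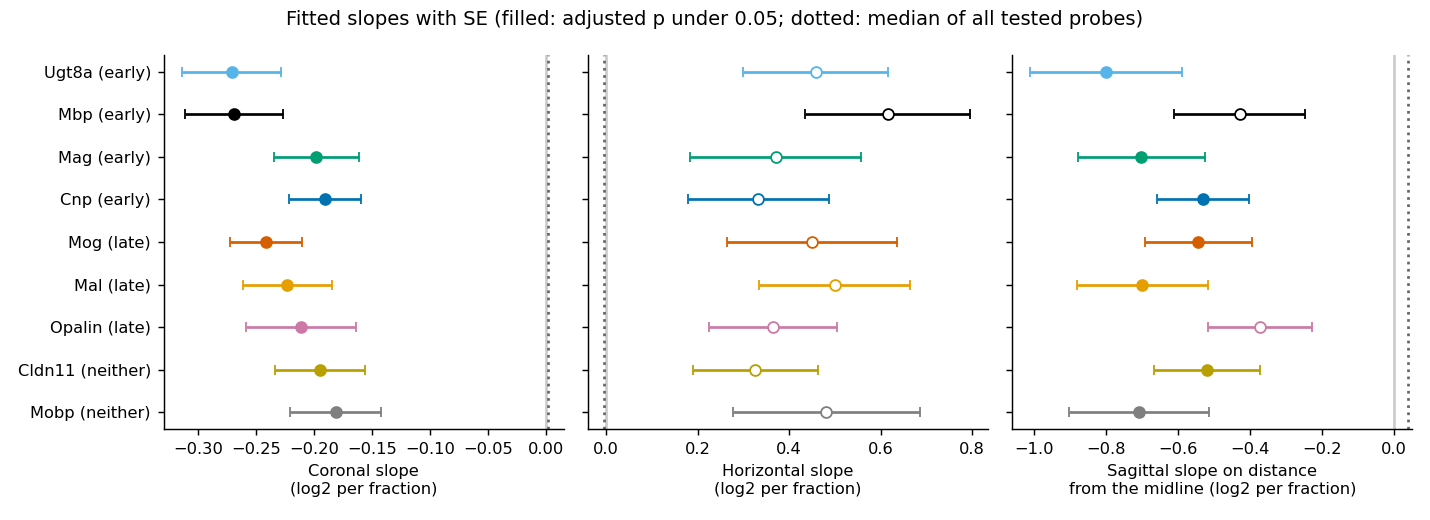
Fitted slopes of the 9 genes along the coronal, horizontal and sagittal axes (log2 per fraction), with bars for the SE. Filled points passed the adjusted p of 0.05, and the dotted line is the median slope of all tested probes. All 9 coronal and 7 of the 9 sagittal slopes are filled, and early and late genes overlap in each panel.

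In the horizontal series, from the top of the brain to its base, the 9 members were lowest in fraction 1, the cortex-rich dorsal cap. Of the 9, 8 were highest in fraction 5, and Mbp in fraction 6. Among the early genes, Cnp had levels of 4.29 (lowest), 6.32 (median) and 6.75 (highest), a 5.53-fold range. Ugt8a had 0.17, 2.53 and 3.32, and Mag had 4.09, 6.28 and 7.11. Each of them gained at least 1.65 log2 between fractions 1 and 2 alone. Mbp had 3.23, 6.37 and 7.27, and its rise from fraction 5 (6.28) to fraction 6 ran against a drop in all other members.

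The late genes had the same form. Mog had levels of 0.68, 3.39 and 3.88, Mal 4.59, 7.29 and 7.94, and Opalin -0.53, 1.61 and 2.00. Mobp had 3.96, 6.96 and 7.29, and Cldn11 4.11, 5.93 and 6.54. No straight line fitted these bent profiles well, and 0 of the 9 linear slopes passed (limma), while 4 of the 9 had an unadjusted p under 0.05. Over all probes 0.00309% fell and 0% rose past the threshold, although 3698 probes had an unadjusted p under 0.05. The fitted slopes were all positive, from 0.33 (Cldn11) to 0.61 (Mbp), with a median of 0.41 over the early and 0.45 over the late genes, and standard errors of 0.14 to 0.20. They rested largely on fraction 1: without it the slopes ran from 0.049 (Mag) and 0.055 (Cnp) to 0.27 (Mbp), and none passed. A curve with 2 degrees of freedom passed for 8 of the 9 (F-test, limma), against 15.8% of all tested probes. The exception was Mbp, with an adjusted p of 0.0595. With 6 arrays the call hangs on single fractions: no member passed without fraction 1 (6.84% of all tested probes did), without fraction 3 or without fraction 4, and 2 passed without fraction 6 (4.13% of all). Without fraction 3 or fraction 4, no probe of the array passed either (limma), with 10053 and 7679 at an unadjusted p under 0.05.

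In the sagittal series, from one side of the brain to the other, the members were high near the midline and low at both edges. Level was fitted on distance from the midline. All 9 slopes were negative and 7 passed (limma), against 7.72% of all tested probes that fell and 13.1% that rose with distance. Among the early genes, Ugt8a had levels of -1.82 (lowest), 2.72 (median) and 3.51 (highest), a 40.4-fold range, the widest of any member in any series. Its slope was -0.80 (SE 0.21, adjusted p = 0.026, limma). Mag had 2.93, 6.69 and 7.23 (slope -0.70, SE 0.18, adjusted p = 0.0218, limma), and Cnp 3.79, 6.43 and 6.95 (slope -0.53, SE 0.13, adjusted p = 0.0192, limma). All 3 had their lowest level in fraction 1 and their highest in fraction 4 or 7, the neighbours of the midline pair.

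Mbp had levels of 3.03, 5.70 and 7.00, was highest in fraction 8, and did not pass (slope -0.43, SE 0.18, adjusted p = 0.112, limma). Of the late genes, Mog had 0.46, 3.33 and 3.85, and Mal 3.13, 7.11 and 7.71, and both passed, with slopes of -0.54 and -0.70. Opalin had -1.20, 1.17 and 1.82, with its highest level in fraction 8 too, and did not pass (slope -0.37, SE 0.14, adjusted p = 0.0878, limma). Mobp (2.94, 7.15 and 7.45) and Cldn11 (3.03, 5.92 and 6.57) passed, with slopes of -0.71 and -0.52. The median slope was -0.62 over the early and -0.54 over the late genes. Differences between early and late genes were not tested in this series. A curve along the whole series passed for the same 7 genes (F-test, limma), against 14.7% of all tested probes.

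**Figure D3:**
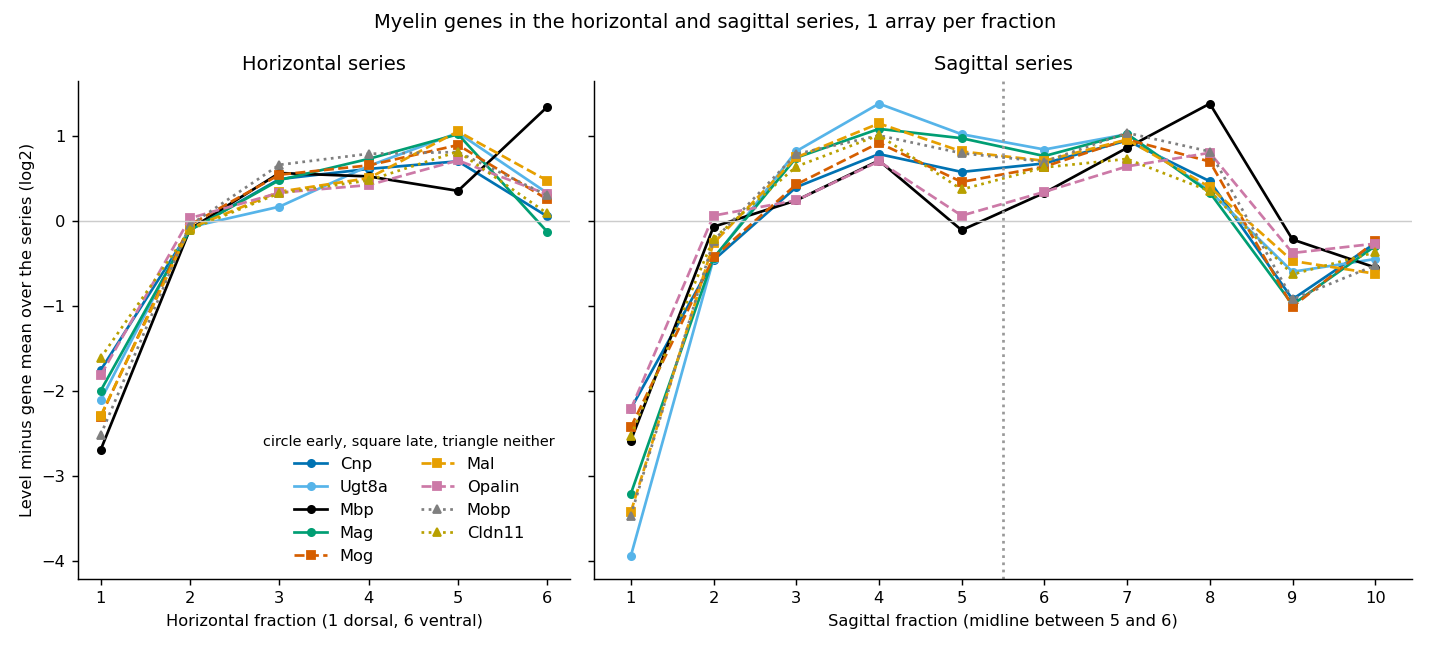
Levels of the 9 genes in the 6 horizontal and 10 sagittal fractions, each minus its own mean over the series (log2), with 1 array per point and the midline dotted. Horizontal fraction 1 and sagittal fraction 1 lie below all others for every gene, and Mbp alone is highest in horizontal fraction 6.

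The outermost fraction 1 carried much of this. It was the dimmest array of all, and the members in it lay 1.95 log2 (Cnp) to 3.50 log2 (Ugt8a) below their level in fraction 10, its mirror position. Mirror positions are the nearest thing to replicates here, but side and slide are tied. Fractions 1 to 4 lay on slide 4 and fractions 5 to 10 on slide 3, so only fractions 5 and 6 are mirror positions on the same slide. Over the 4 mirror pairs without fractions 1 and 10 the higher-numbered minus lower-numbered differences had an SD of 0.098 (Mal) to 0.55 (Mbp). The mean of fractions 4 to 7 exceeded that of fractions 1, 2, 9 and 10 by 1.14 (Opalin) to 2.43 log2 (Ugt8a). Without fraction 1, 3 of the 9 distance slopes passed (Mag, Mal and Ugt8a), without fraction 4, 2, and without fraction 7, 4, against 6.06%, 11.6% and 12.8% of all tested probes in either direction. Leaving out fractions 1 and 9, the dimmest arrays of this series, left 5 (Cnp, Mag, Mal, Mobp and Ugt8a), against 14.1% of all tested probes, with all 9 slopes between -0.42 and -0.12. Without fraction 1 the curve passed for no member and for no probe of the array (limma), with 5955 probes at an unadjusted p under 0.05. It passed for 3 members without fraction 3, 4 or 6, against 6.98%, 6.44% and 6.24% of all tested probes. Within the slide of fractions 5 to 10 no distance slope and no curve passed. The slopes there were all negative, from -0.41 (Ugt8a) to -0.15 (Opalin), and of all tested probes none passed either, with 6223 at an unadjusted p under 0.05. Over the 10 arrays the log2 brightness and the median profile of the members had r = 0.87, and the part of brightness in the result was not tested. With levels taken relative to the median of each array, the median slope of all probes moved from 0.037 to -0.13, and 7 members passed, against 4.37% of all tested probes in either direction.

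The 9 genes varied together. Over the 36 pairs of members, Pearson's r across all 28 arrays ranged from 0.81 (Mbp and Mag) to 0.99 (Mal and Ugt8a), with a median of 0.95. Within the coronal series the range was 0.76 (Mbp and Cldn11) to 0.99 (Mal and Ugt8a). These are descriptions over arrays that share 3 brains and have neighbouring positions. An early gene, Ugt8a, and a late one, Mal, were thus the closest pair, and Mbp was in the loosest pair of each series. Set against the mean profile of the 9, of which each gene is a part, Mbp had a mean r over the 3 series of 0.91, and the other 8 had 0.98 to 0.99.

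Mbp departed from the rest in particular slices. Relative to the median of the other 8, each set to its series mean, it stood 1.01 log2 high in coronal fraction 1, 1.06 high in horizontal fraction 6 and 0.95 high in sagittal fraction 8. Its departure was -0.77 in coronal fraction 8 and -0.80 in sagittal fraction 5. Some of the slices where it stood high gave dim arrays (75th percentiles of 233 and 269 in the horizontal and sagittal ones), and over the 28 arrays its departure and the log2 brightness had r = -0.47. Over the same arrays the departure of Mbp had r = 0.83 with that of a Mobp probe, A_51_P291224, taken from the median of the 7 members other than Mbp and Mobp, so that both departures share most of their reference. Neither relation was tested further.

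The 3 probes of Mbp had unlike profiles. The brightest, A_52_P329451, gave the values above. A_52_P604195 was between 2.39 (coronal fraction 1) and 3.67 (fraction 8) along the coronal axis, with a slope of 0.022 (SE 0.040, adjusted p = 0.773, limma), and its curve passed with a hump in fractions 4 to 9 (adjusted p = 0.0073, limma). A_55_P1992160 ran from -2.47 (fraction 3) to -0.83 (fraction 9), with a slope of 0.049 (SE 0.030, adjusted p = 0.327, limma). Both were highest in horizontal fraction 1 and sagittal fraction 1, where the first probe and the other members were lowest, and A_55_P1992160 rose with distance from the midline (slope 0.28, SE 0.074, adjusted p = 0.0265, limma). Across the 28 arrays these probes had r = 0.65 with each other and -0.41 and -0.49 with the first. The array files assign A_52_P329451 and A_55_P1992160 to the same RefSeq transcript of Mbp and A_52_P604195 to another, so the unlike profiles do not follow this assignment. The part of the transcript that each probe reads was not analysed here. The fall of Mbp along the coronal axis therefore holds for the probe that the rule picked and not for the other two. With the 3 probes averaged the slope of Mbp was -0.066 (SE 0.026) and did not pass (adjusted p = 0.122, limma).

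For Mobp the 3 probes ran alike, with r from 0.94 to 0.99 over the 28 arrays. All fell along the coronal axis, with slopes of -0.18 (A_55_P1958798, used above), -0.24 (A_51_P291224) and -0.26 (A_55_P1958793) per fraction. A_51_P291224 dropped from 6.09 to 5.39 between coronal fractions 1 and 2, and was highest in horizontal fraction 6 and sagittal fraction 8. Its r was 0.96 with the brightest Mbp probe, with Mog and with A_55_P1958793 alike, and 0.94 with the used Mobp probe.

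**Figure D4:**
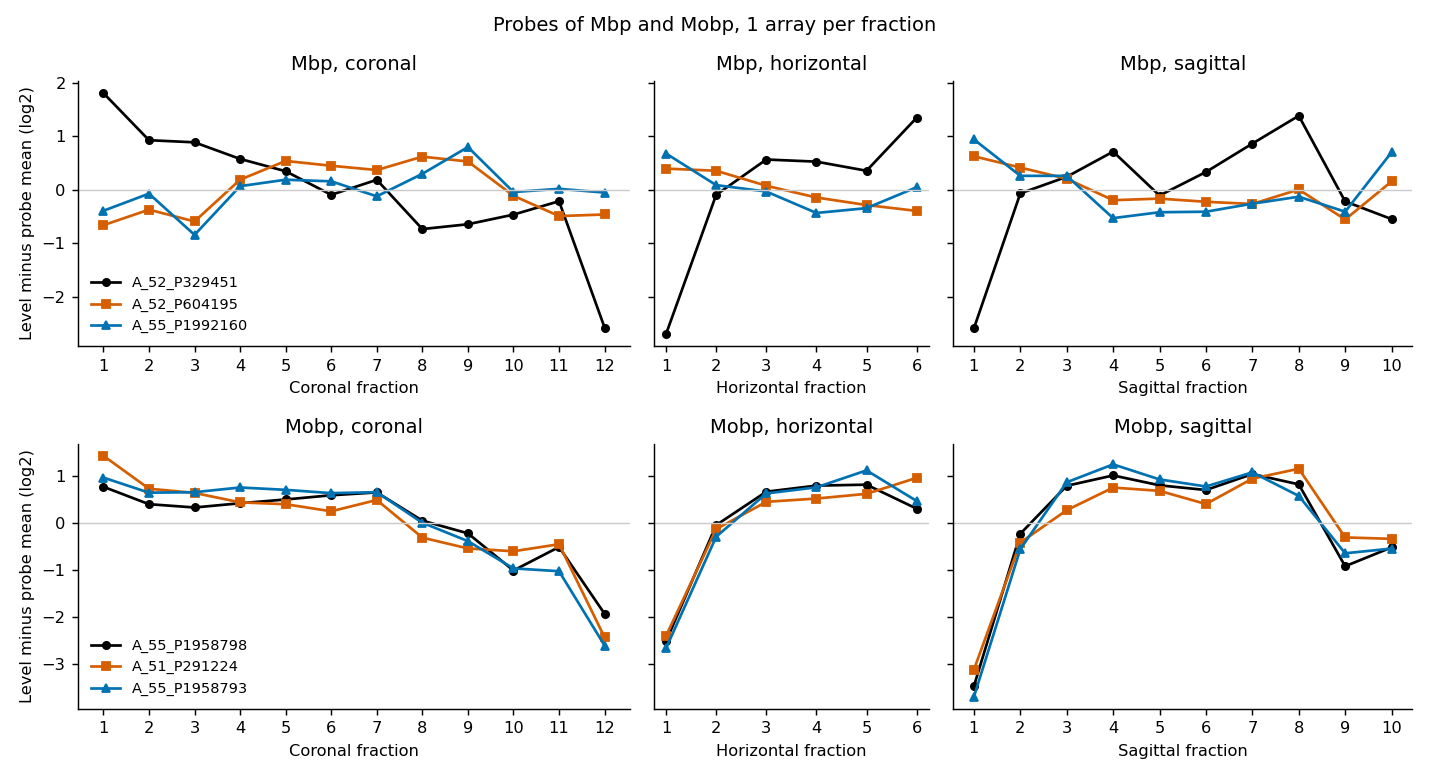
Levels of the 3 probes of Mbp (top) and of Mobp (bottom) in the 3 series, each minus the probe's own mean over the series (log2), with 1 array per point. The brightest Mbp probe falls to its lowest level where the other 2 Mbp probes are at their highest, in horizontal and sagittal fraction 1, while the Mobp probes run together.

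The rest of the lineage was described from fixed lists, by the number of genes that passed in the coronal slope. These counts, here and for the other lists of the lineage that follow, stand beside 6.73% of all tested probes that fell and 5.83% that rose. The precursor list (7 genes, dividing cells marked by Pdgfra and Cspg4 and not yet making myelin) had 0 that passed, and its median slope was 0.0021 log2 per fraction, near the 0.0023 of all probes. Its extremes were Neu4, a sialidase (slope -0.10, adjusted p = 0.226, well above background on 11 of 12 coronal arrays), and Matn4, a matrix protein (0.13, adjusted p = 0.0966). At an unadjusted threshold of 0.05, 1 of the 7 passed, beside 27.6% of all tested probes. The list of committed and newly formed cells had 9 tested genes, of which 2 fell: Enpp6, an ectoenzyme of cells at the onset of myelination (-0.27, SE 0.056, adjusted p = 0.00835, well above background on 11 of 12 coronal arrays), and Cnksr3 (-0.23, SE 0.028, adjusted p = 0.000371). Its median slope was -0.039, and Bmp4 had the highest slope (0.055, adjusted p = 0.203). Bcas1 was not tested, since its spot was left out as an outlier on 1 array. The medians of both lists lay closer to that of all probes than the members' median did.

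Of the 8 transcription factors of the lineage, 3 fell (Nkx6-2, Myrf and Olig1), and none rose. Nkx6-2, a homeobox factor of maturing oligodendrocytes (slope -0.29, SE 0.043, adjusted p = 0.00146), and Myrf, which drives myelin gene transcription (-0.28, SE 0.029, adjusted p = 0.000132), had fitted slopes near the steep end of the members'. The Myrf probe was dim, well above background on 6 of the 12 coronal arrays, so its slope rests in part on levels at background. Nkx2-2, which acts at the switch from precursor to differentiating cell (-0.030, adjusted p = 0.333), and Zfp488 (-0.031, adjusted p = 0.476) were the shallowest. The median over the 8 was -0.081.

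Among 16 other proteins of myelin and of the paranode, the attachment zone beside the node of Ranvier, 11 fell and none rose, with a median of -0.13. The steepest were Hapln2, which links matrix at the nodes (-0.40, SE 0.035, adjusted p = 7.11e-05), and Tmem88b (-0.29, SE 0.036, adjusted p = 0.000489). The shallowest were Ermn, an actin-binding protein of late oligodendrocytes (-0.043, adjusted p = 0.578), and Tppp, which promotes microtubule assembly (-0.051, adjusted p = 0.424). Of 12 genes of myelin lipid synthesis, 11 fell, with a median of -0.13. Fa2h, which hydroxylates the fatty acids of galactolipids, was steepest (-0.27, SE 0.049, adjusted p = 0.00396).

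Of the 12 tested genes of the mature oligodendrocyte list, 9 fell and 1 rose. Klk6, a secreted protease, was the steepest gene of all lists of the lineage (-0.48, SE 0.062, adjusted p = 0.000556), and Trf, transferrin, which carries iron, followed in this list (-0.27, SE 0.020, adjusted p = 3e-05). Mcam, an adhesion molecule that vessels also carry, rose (0.11, SE 0.029, adjusted p = 0.0256), and Apod, a lipid carrier, had a slope of 0.038 (adjusted p = 0.756). The median was -0.18. Slopes read in this way compare each gene with its own levels, and a steep slope is not a high level.

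**Figure D5:**
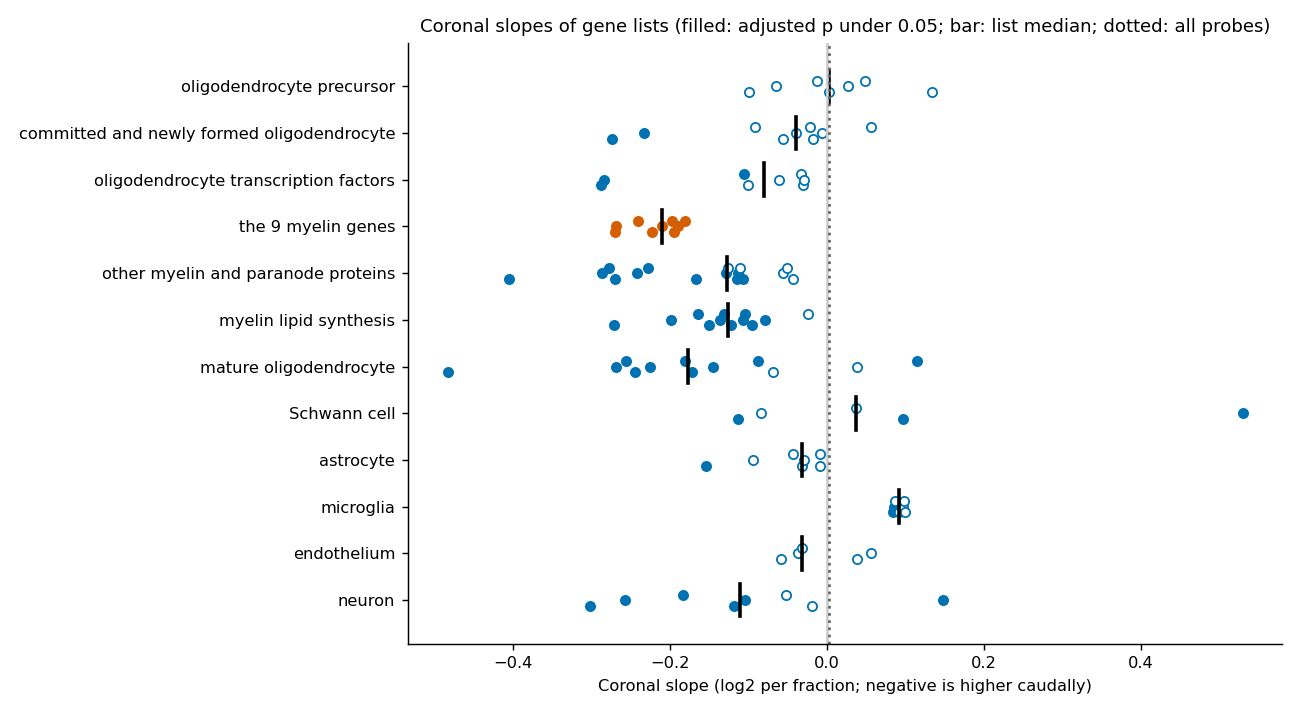
Coronal slopes (log2 per fraction) of the genes of 12 lists, with 1 point per gene, filled where the adjusted p was under 0.05, and a bar at the list median. The 9 myelin genes lie between -0.27 and -0.18, the precursor genes scatter around the dotted median of all probes, and the microglia genes lie above 0.

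Lists of other cells of the brain were read beside the members, and their coronal counts too stand beside the 6.73% of all tested probes that fell and the 5.83% that rose. Peripheral myelin from nerve roots would carry Schwann cell genes. Of that list, Pmp2, a lipid-binding protein of peripheral myelin, was not tested, since none of the 28 arrays read it well above background. Of the 5 tested, Ncmap fell (-0.11, adjusted p = 0.0119), while Egr2, which neurons also express (0.53, adjusted p = 0.00666, well above background on 9 of 12 coronal arrays), and Drp2 (0.097, adjusted p = 0.0332) rose, and the log2 summed level of the 5 was between 2.95 and 3.33 over the coronal fractions. The astrocyte list had 1 of 7 that fell, Aqp4, the water channel of end-feet (-0.15, adjusted p = 0.0322). The microglia list had 2 of 7 that rose, among them Csf1r, a growth factor receptor (0.085, adjusted p = 0.0375), and a summed level from 5.91 to 7.42. No endothelial gene of 5 passed, with 1 at an unadjusted p under 0.05, beside 27.6% of all tested probes. The neuron list had 5 of 8 that fell and 1 that rose. The steepest were Nefh and Nefm, subunits of the neurofilaments that fill large axons (-0.30 and -0.26, adjusted p = 0.000264 and 0.000163), and Syt1, a synaptic vesicle protein, rose (0.15, adjusted p = 0.0304). The adjusted p-values are from limma, and the part of other cells in the members' slopes was not tested.

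On the sagittal axis the counts of genes falling with distance from the midline were 2 of 7 precursor genes, 5 of 9 newly formed, 6 of 8 transcription factors, 8 of 16 other myelin and paranode genes, 10 of 12 lipid synthesis genes and 7 of 12 mature genes, where 1 rose. Of all tested probes, 7.72% fell and 13.1% rose with distance. In the horizontal series no gene of these 6 lists had a slope that passed, and between 1 (precursor) and 8 (mature) of each list's genes had an unadjusted p under 0.05, beside 11.4% of all tested probes. The median horizontal slope was 0.066 for the precursor list, 0.28 for the lipid list, 0.29 for the other myelin genes and 0.37 for the mature list, beside 0.45 for the 9 members and -0.0051 for all probes. The order of these medians matched that along the coronal axis in that the precursor list was nearest to the median of all probes and the members were farthest from it.

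The genes whose profiles were most like the mean profile of the 9 members were ranked by Pearson's r, averaged over the 3 series, among 15537 other named symbols. The first 9 were S1pr5, Sgk2, Tmem88b, Ninj2, Tmem125, Ppp1r14a, Fa2h, Nkx6-2 and Adamts4, with mean r from 0.99 to 0.98. The median symbol had a mean r of 0.054, and 87 symbols exceeded 0.9. Of these 9, 6 were on the fixed lists of the lineage, and S1pr5, a sphingosine-1-phosphate receptor, Sgk2, a kinase, and Ninj2, an adhesion protein, were on none of them. S1pr5, first in rank, had a coronal slope of -0.24 (SE 0.036), Sgk2 of -0.19 (SE 0.041) and Ninj2 of -0.23 (SE 0.034), each within the range of the members. The ranking runs over 28 positions in 3 brains and is a description.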

How the data were processed

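Cy3-labelled RNA of each fraction was hybridised to an Agilent array with 1 colour. The authors extracted intensity values with Feature Extraction 10.5.1.1 (build mm9, per the file headers), which takes off the background of every spot. A table of log2 values for 44721 probes, deposited beside the arrays, served as an alternative. For probes with 1 spot it matched the log2 signal less the array's 75th percentile, apart from a constant per array of up to 0.00758, within 2.3e-06. How the authors summarised probes with several spots is not given in the sources used here.

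Here, spots with an outlier flag (108 to 176 per array) were left out, the spots of a probe averaged, log2 taken and the 75th percentile of the array subtracted. Tested were the 32364 probes with a value on every array that stood well above background somewhere in all 3 series. Probes were named through the accession in the array files and a RefSeq table (GRCm38.p6), which named 27235 of 55681 probes (48.9%). Slopes and natural cubic splines (3 degrees of freedom, 2 in the horizontal series) were fitted with limma 3.58.1 in R 4.3.3. Adjusted p-values are Benjamini-Hochberg values over all tested probes, with a threshold of 0.05. The slope fits were run on simulated data with straight slopes and independent noise. Such data cannot show how the fits behave with plateaus or with neighbouring fractions that are alike. Fractions are positions, not replicates, so p-values describe the scatter within 1 brain and may be technical in part. Alternatives were the array median, quantile normalization, normexp (offset 50) on median foreground and background intensities, the deposited log2 values, outlier spots kept, no filter, the mean over a gene's probes, slide, side, and single fractions left out. Leaving out sagittal fractions 1 and 9 was added after seeing the data. The genes named are the 9 members with all their probes, at most 4 genes per list at the extremes of the coronal slope, and the 10 symbols most like the members' mean profile. Values of some genes that this rule names are not reported here. Where a gene named to complete a count of 5 or fewer falls outside this, it was chosen after its values were seen. The members and lists were chosen with earlier results of these data known.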

Additional observations from a re-analysis of the deposited data

Results flagged for a closer look

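Fractions of a series are different places in the brain, not replicates. In each of the 18 sets (9 genes in the horizontal and in the sagittal series) the gap between the most extreme fraction and its neighbour in rank was divided by the whole range and set against Dixon's 95% value. Chance alone passes about 1 group of replicates in 20. The share of all tested probes set apart in the same fractions was not counted. Since the 9 genes varied together and share arrays, the sets of a series are not independent, and the counts below describe the members only.

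In the horizontal series, fraction 1 was set apart at the low end for 7 genes, with a gap over range of 0.743 for Mobp, 0.73 for Opalin, 0.707 for Mog, 0.669 for Cnp, 0.66 for Mal, 0.648 for Ugt8a and 0.643 for Mbp. Mag and Cldn11 came to 0.62 and 0.621, just under that value. The 75th percentile of that array was 268.

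In the sagittal series, fraction 1 was set apart at the low end for 7 genes, with 0.629 for Ugt8a, 0.614 for Mal, 0.61 for Opalin, 0.564 for Mobp, 0.536 for Cldn11, 0.519 for Mag and 0.514 for Mbp. Mog (0.421) and Cnp (0.407) did not pass. This was the dimmest of the 28 arrays, with a 75th percentile of 135, and the part of its brightness in these values was not tested. No gene was set apart at the high end in either series.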

How the results depend on the processing

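No member's fitted slope changed sign under any alternative. With the 3 probes of Mbp averaged, however, its sagittal distance slope was -0.0049 (SE 0.068), from -0.43. Its horizontal slope was then 0.10 (SE 0.066), from 0.61. The number of the 9 members past the threshold fell from 9 to 4 for the coronal slope and from 9 to 5 for the coronal curve with slide as an added term, and to 5 for the slope within coronal fractions 3 to 10. Over all tested probes the share called was then 5.83%, 0.745% and 9.19%, from 12.6% for the slope and 33.7% for the curve. With slide as a term the fitted range of the curve was 3.69 log2 for Mbp, from 3.47, and 3.04 for Mog, from 2.94. Leaving out 1 coronal fraction kept both counts at 9 to 9. The share of all tested probes was then 7.61% to 17.4% for the slope and 24.5% to 34.4% for the curve. For the horizontal curve (8) leaving out 1 fraction gave 0 to 8, against 0% to 17.8% of all tested probes. For the sagittal distance slope (7) the count was 2 with no filter on probes (6.13% of all probes). Within fractions 5 to 10 it was 0 (0% of all). With 1 fraction left out it was 2 to 7 (6.06% to 34.6% of all). For the sagittal curve (7) the count was 3 with the array median (1.04% of all probes). Within fractions 5 to 10 it was 0 (0% of all). Without fractions 1 and 9 it was also 0 (2.9% of all, a choice added after seeing the data). With 1 fraction left out it was 0 to 8 (0% to 47.1% of all). The late minus early slope (0.011) was -0.029 with the mean over a gene's probes, in which the unlike probes of Mbp enter, 0.023 with Mobp and Cldn11 counted as late, 0.0022 within fractions 3 to 10, and -0.019 to 0.020 with 1 fraction left out. The causes were not tested, except that alternatives within a slide use fewer fractions. The other counts stayed within 1.5 times their main value. No paired analysis was possible because fraction numbers mark positions in different planes and pair nothing between mice. The number of arrays, 1 per position, limits the precision.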
